A study of Mus musculus with 2 samples.

Results

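The formyl peptide receptor genes described here are the 7 members of the family annotated as protein-coding on mouse chromosome 17: Fpr1, Fpr2, Fpr3, Fpr-rs3, Fpr-rs4, Fpr-rs6 and Fpr-rs7. They were chosen by name, out of 21728 protein-coding genes on the autosomes and X, and all 7 were found in the annotation. The question was where each gene lies between the domain boundaries of olfactory sensory neurons, and whether the members used by the immune system and those used by the vomeronasal organ lie in the same interval between boundaries.

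The cells were mature olfactory sensory neurons that express the olfactory receptor gene Olfr17, sorted by fluorescence out of the main olfactory epithelium. The mice were adult, of the strain 129P2/OlaHsd and of mixed sex. They form the only group, with 2 biological replicates of 23000 and 20000 cells and no control. Contacts were measured by in situ Hi-C, in which chromatin is fixed with 1% formaldehyde, cut with DpnII and religated, so that DNA ends close together in the nucleus are joined. The authors merged both replicates into 1 contact map before boundaries were called, so no value below has a replicate error and no test between samples was possible.

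Formyl peptide receptors are G protein-coupled receptors that bind peptides starting with formylmethionine, as bacteria and mitochondria make them. Fpr1 and Fpr2 sit on neutrophils and macrophages and steer them toward such peptides. In rodents the family grew, and Fpr-rs3, Fpr-rs4, Fpr-rs6 and Fpr-rs7 are expressed in sensory neurons of the vomeronasal organ, each in its own small set of cells. Fpr3 has been described in leukocytes and in vomeronasal neurons, and was therefore counted in neither set. Vomeronasal neurons otherwise use the Vmn1r receptors, together with the G protein subunit Gαi2, or the Vmn2r receptors, together with Gαo. The sorted cells of this study are not vomeronasal neurons or leukocytes. No expression values were analysed here, so neither the identity of the cells nor the activity of any Fpr gene could be checked.

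The start of the receptor's reading frame is the point at which the 7 genes are most directly compared, because their annotated 5′ ends are not alike. The following 60 bases of the GRCm38 reference, written 5′ to 3′ on the strand of each gene, run from 45 bases before the start codon to the end of the 5th codon. Capitals mark the ATG and the AG that ends 11 bases before it. The AG was looked for on the gene's own strand at that distance only.
Fpr1, chr17:17877711-17877770, minus strand: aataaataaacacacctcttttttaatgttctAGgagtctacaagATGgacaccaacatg
Fpr2, chr17:17892699-17892758, plus strand: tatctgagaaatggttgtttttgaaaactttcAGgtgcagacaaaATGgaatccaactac
Fpr3, chr17:17970424-17970483, plus strand: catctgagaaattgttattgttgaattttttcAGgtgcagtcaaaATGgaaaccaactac
Fpr-rs4, chr17:18021688-18021747, plus strand: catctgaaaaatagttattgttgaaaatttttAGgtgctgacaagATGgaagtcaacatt
Fpr-rs7, chr17:20114212-20114271, minus strand: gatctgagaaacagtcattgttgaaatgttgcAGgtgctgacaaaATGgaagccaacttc
Fpr-rs6, chr17:20183083-20183142, minus strand: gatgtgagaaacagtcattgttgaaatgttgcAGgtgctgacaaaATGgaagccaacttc
Fpr-rs3, chr17:20624863-20624922, minus strand: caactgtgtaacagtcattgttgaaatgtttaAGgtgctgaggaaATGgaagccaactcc

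All 7 genes have the AG at this place. In Fpr1, Fpr2 and Fpr3 the annotated coding exon begins directly after it, so there the AG is the annotated end of an intron. In Fpr-rs4, Fpr-rs7, Fpr-rs6 and Fpr-rs3 GENCODE M21 annotates 1 exon that holds the reading frame alone, of 972, 1017, 1020 and 1032 bases, and no upstream exon. Over chromosome 17, an AG ended 11 bases before the start codon in 8.09% of 1038 coding genes. The distance of 11 bases is that of the annotated coding exons of Fpr1, Fpr2 and Fpr3. The 7 genes are also related, so they are not 7 independent cases beside that share. For the 4 vomeronasal members the annotated transcription start site (TSS) is thus the start codon itself, and the distances below are those of the start codon. The start codon of Fpr1 lies 6.21 kb from its TSS, that of Fpr2 4.92 kb, and that of Fpr3 82.6 kb.

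The immune members and the vomeronasal members shared 0 intervals between neighbouring boundaries with Fpr3 in neither set, and 1 interval if Fpr3 is counted as vomeronasal. By RefSeq starts, given below, it was 1 with Fpr3 counted as immune and 0 with Fpr3 counted as vomeronasal. A boundary lay between 26.8% of all neighbouring coding TSSs, and intervals had a median length of 260 kb. Fpr-rs7, Fpr-rs6 and Fpr-rs3 lie at least 2092 kb beyond Fpr-rs4, a distance many times that median. Fpr1, Fpr2 and the annotated start of Fpr3 lay together in 1 interval of 250 kb, closed on both sides by boundaries that the authors classed as Strong. The 4 vomeronasal members lay in 3 other intervals, of 480, 325 and 685 kb, beyond the boundary that ends the first one. That boundary, with an authors' score of 1.29, falls inside the span that GENCODE M21 annotates for the Fpr3 gene. Between it and the next Strong boundary lay 3110 kb of chromosome with all 4 vomeronasal members and 7 Weak boundaries.

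The deposited list holds 7576 boundaries, each a bin of 5 kb with a score in an unstated unit. Scores ran between 0.20 and 4.38 with a median of 0.545, and 4045 boundaries, or 53.4%, were Strong. The class follows the score: the highest Weak score was 0.4996 and the lowest Strong score 0.5002. A distance was taken between a TSS and the midpoint of a bin, so a bin alone leaves it uncertain by 2.5 kb.

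**Figure D1:**
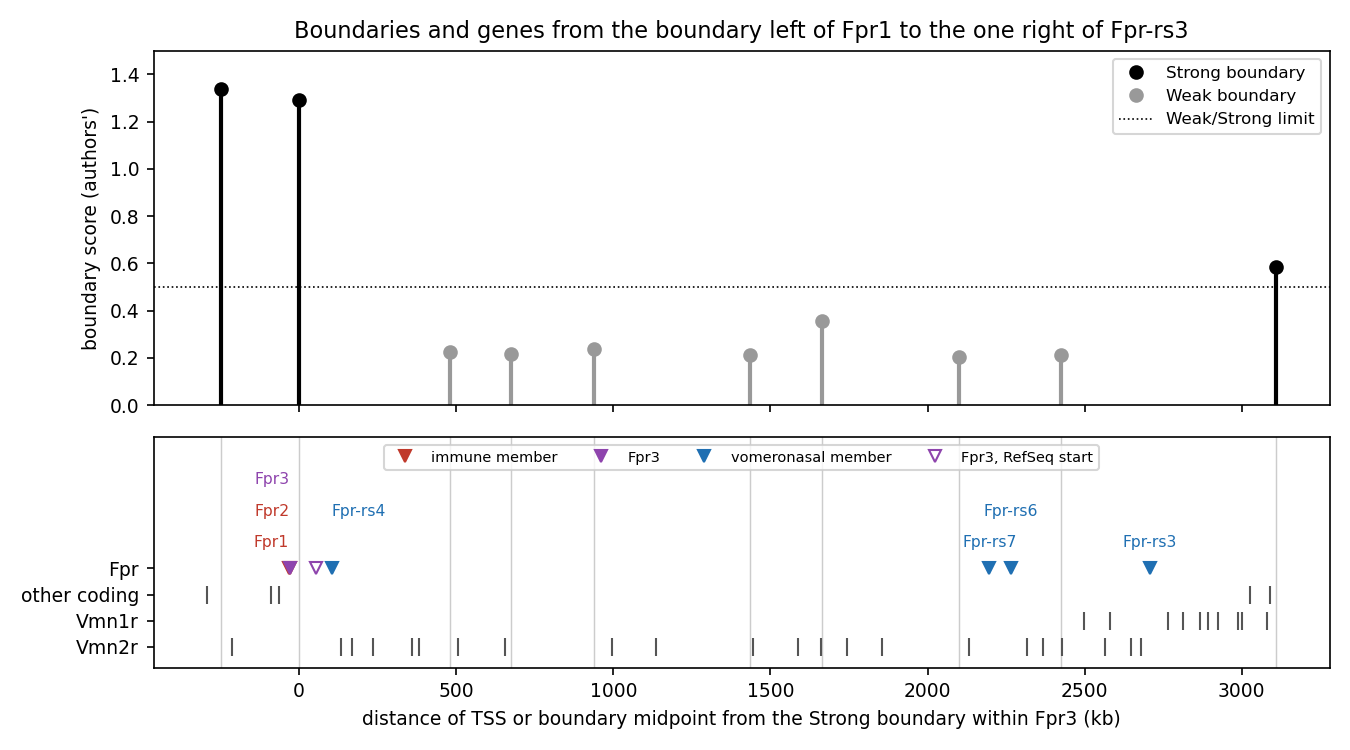
The upper panel plots the authors' score of each of 10 boundaries against its distance in kb from the Strong boundary within Fpr3 (black, Strong; grey, Weak; the dotted line is their limit). The lower panel marks the TSSs of the Fpr genes and of other coding genes on the same axis, and shows Fpr1, Fpr2 and Fpr3 between the boundaries of 1.34 and 1.29, with the vomeronasal members to the right among Weak boundaries of 0.203 to 0.356.

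Fpr1 (ENSMUSG00000045551), the high-affinity receptor for formylated bacterial peptides, lies on the minus strand at chr17:17876471-17883940 of GRCm38. Its TSS lay 216 kb right of a boundary scored 1.34 and 33.6 kb left of the one scored 1.29. Fpr2 (ENSMUSG00000052270), a receptor with a wider range of ligands that include Annexin A1 and serum amyloid A, lies on the plus strand at chr17:17887824-17893952. Its TSS lay 220 kb from the left boundary and 29.7 kb from the right one. The 2 starts point away from each other and are 3.88 kb apart, with no boundary between them. Both immune receptors therefore sat near the right end of their interval, 86.6% of the way across it for Fpr1 and 88.1% for Fpr2.

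Fpr3 (ENSMUSG00000079700) is annotated on the plus strand at chr17:17887852-17971677. By the longer of its 2 GENCODE transcripts, though not by the shorter, it is the one member whose gene a boundary divides. Its longer transcript starts 0.028 kb after Fpr2, with a first exon of 48 bases that ends on the same base as the first exon of Fpr2. From that start the boundaries lay 220 kb to the left and 29.6 kb to the right. Its second exon, at chr17:17970458-17971677 and 1220 bases long, holds the whole reading frame. The Strong boundary at chr17:17915001-17920000 lay in the intron between the 2 exons and overlapped no exon of any gene.

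RefSeq starts Fpr3 at position 17970458, the first base of that second exon. Measured there, the boundary of 1.29 lay 53.0 kb to the left, and the next boundary to the right, a Weak one of 0.224, was 427 kb away. GENCODE M21 also annotates a shorter transcript of Fpr3 that starts at this same base. The place of Fpr3 thus turned on which annotated start was used. By its GENCODE gene start, that of the longer transcript, it fell with Fpr1 and Fpr2. By the start of the shorter transcript, its RefSeq start or its start codon it fell with Fpr-rs4. The reading frames of the immune receptors Fpr1 and Fpr2 and of the 4 vomeronasal receptors were separated by the boundary under either annotation.

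Fpr-rs4 (ENSMUSG00000048062) lies on the plus strand at chr17:18021733-18022704 and is the vomeronasal member nearest to the immune ones. Its start lay 104 kb right of the Strong boundary of 1.29 and 376 kb left of a Weak boundary of 0.224. Fpr3 and Fpr-rs4 are neighbours with no other coding TSS between them and 134 kb between their GENCODE starts. Among the 6 pairs of neighbouring members, 4 have no other coding TSS between them. By GENCODE starts, Fpr3 and Fpr-rs4 alone of those 4 pairs had a boundary in between. By the RefSeq start of Fpr3, that boundary lay between Fpr2 and Fpr3 instead, with none between Fpr3 and Fpr-rs4. Over the genome 26.8% of neighbouring coding TSSs had a boundary between them and 17.7% a Strong one, without regard to the distance between the genes. A pseudogene of the family, Fpr-rs5, lies in the same interval, 73.0 kb right of the Strong boundary.

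Fpr-rs7 (ENSMUSG00000071276, chr17:20113210-20114226, minus strand) and Fpr-rs6 (ENSMUSG00000071275, chr17:20182078-20183097, minus strand) lay together in the interval of 325 kb. It was bounded by a score of 0.203 on the left and 0.214 on the right, both Weak. Fpr-rs7 lay 96.7 kb from the left boundary and 228 kb from the right one. Fpr-rs6 lay 166 kb from the left and 159 kb from the right, close to the middle of the interval. The 2 genes are 68.9 kb apart with no boundary between them, and they are the only vomeronasal members that shared an interval.

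Fpr-rs3 (ENSMUSG00000060701, chr17:20623846-20624877, minus strand) was the member farthest from any boundary. Its start lay 282 kb from a Weak boundary of 0.214 on the left and 403 kb from a Strong boundary of 0.585 on the right. The interval of 685 kb was longer than 92.5% of the 7556 intervals of the genome, whose median length was 260 kb. The other intervals that held members were longer than 82.5% of all intervals for that of Fpr-rs4, 63.6% for that of Fpr-rs7 and Fpr-rs6, and 46.1% for that of the immune members.

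**Figure D2:**
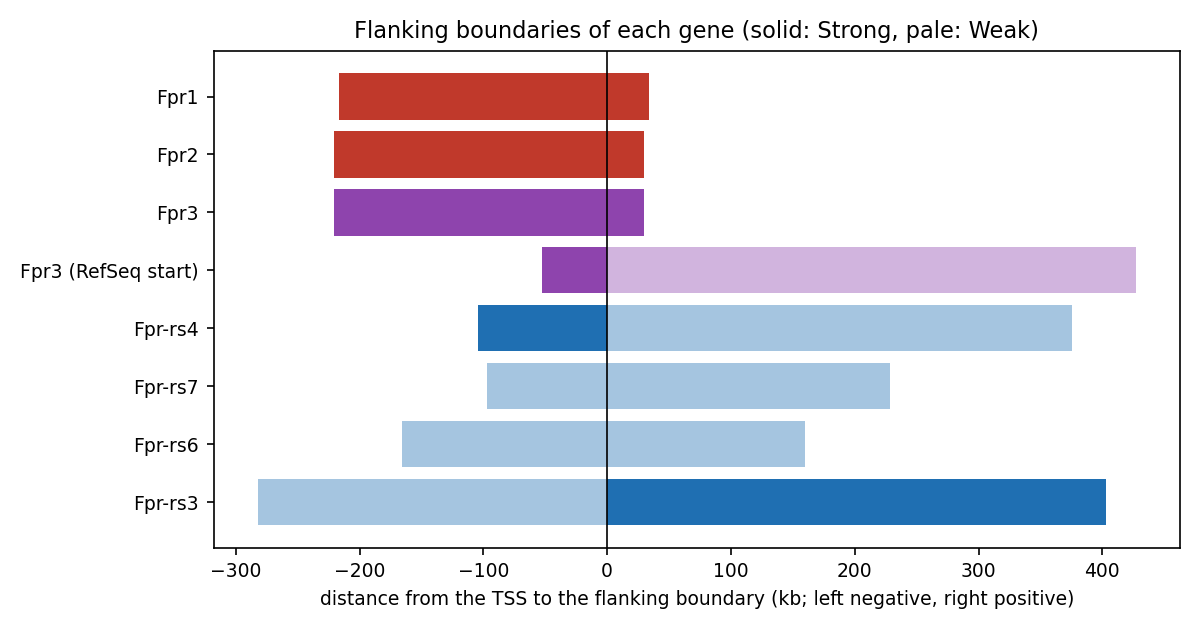
Each bar runs from the left flanking boundary to the right one, with the gene's TSS at 0 on an axis in kb, solid toward a Strong boundary and pale toward a Weak one. The bars of Fpr1, Fpr2 and Fpr3 are solid on both sides and end 29.6 to 33.6 kb to the right, whereas Fpr3 by its RefSeq start resembles Fpr-rs4 in its position.

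Ordered by the distance to the nearest boundary, Fpr3, Fpr2 and Fpr1 came first at 29.6, 29.7 and 33.6 kb. Fpr-rs7 and Fpr-rs4 followed at 96.7 and 104 kb, then Fpr-rs6 at 159 kb and Fpr-rs3 at 282 kb. The starts of Fpr2 and Fpr3, and those of Fpr2 and Fpr1, differ by less than a bin. The order of Fpr-rs7 and Fpr-rs4 rests on a difference of under 10 kb. The median over the 7 members was 96.7 kb, against 59.3 kb over all protein-coding genes.

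A boundary lay within 25 kb of the TSS of 0 of 7 members, against 23.9% of all protein-coding TSSs. Within 50 kb the count was 3 of 7, namely Fpr1, Fpr2 and Fpr3, against 43.2% of all. Counted by Strong boundaries alone, it was 0 of 7 within 10 kb, against 7.68%, 0 of 7 within 25 kb, against 15.8%, and the same 3 genes within 50 kb, against 28.0%. With 7 genes in 4 intervals these counts rest on few independent positions. Nearest distances were shorter than that of Fpr1 in 30.7% of all genes, and shorter than those of Fpr2 and Fpr3 in 27.5%. For the vomeronasal members these shares were 71.2% for Fpr-rs7, 74.0% for Fpr-rs4, 87.1% for Fpr-rs6 and 95% for Fpr-rs3. All 4 thus lay farther from a boundary than most genes, and the immune members nearer than most.

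**Figure D3:**
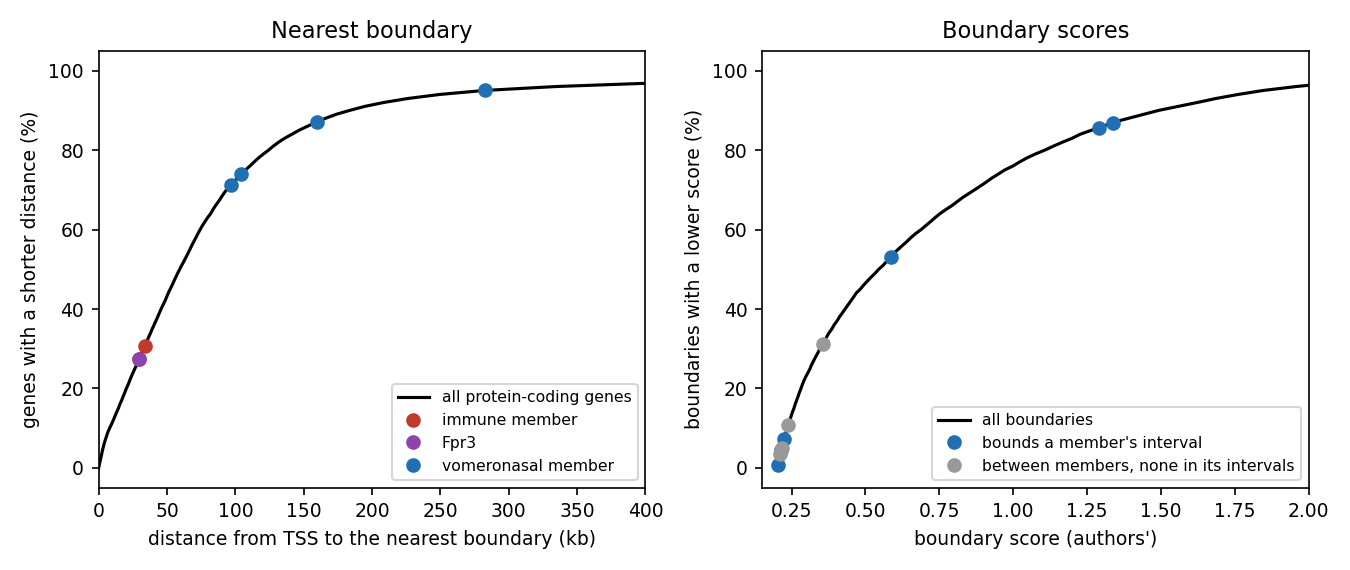
The left panel places each member's distance to its nearest boundary (kb) on the cumulative curve of all 21728 protein-coding genes, where the point of Fpr2 lies under that of Fpr3. The right panel places the authors' scores of the 10 boundaries on the curve of all 7576, where the boundaries of 1.34 and 1.29 stand high and the 7 Weak ones at or below 31.2% of the curve.

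The classes of the flanking boundaries also differed between the members. Both flanking boundaries were Strong for Fpr1, Fpr2 and Fpr3, against 38.6% of all protein-coding genes. Both were Weak for Fpr-rs7 and Fpr-rs6, against 12.4%. Fpr-rs4 and Fpr-rs3 had 1 of each, against 49.0%. Of 120 Vmn2r genes, 16 had 2 Strong flanks, 86 had 1 and 18 had none.

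The 2 boundaries around the immune members were among the higher ones of the list. The left one, at chr17:17665001-17670000, scored above 86.9% of all boundaries and ranked 38 among the 284 on chromosome 17. The one within Fpr3 scored above 85.7% and ranked 40. The nearest coding TSS to the left boundary was that of Vmn2r90, 36.2 kb away, and the nearest to the right one was Fpr3 itself.

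The Weak boundaries that bound the vomeronasal members stood near the low end of the list. The one at chr17:20015001-20020000, left of Fpr-rs7, scored 0.203, above 0.845% of all boundaries, and ranked 282 of the 284 on the chromosome. The one at chr17:20340001-20345000, between Fpr-rs6 and Fpr-rs3, scored 0.214 and above 4.51% of all. The one at chr17:18395001-18400000, right of Fpr-rs4, scored 0.224 and above 7.26%. Their nearest coding genes were Vmn2r104, Vmn2r107 and Vmn2r95, at 30.8, 2.74 and 26.6 kb. All 3 scores lay just above the lowest score listed, 0.20, so these positions are the ones that a slightly higher threshold would remove.

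With Strong boundaries alone, all 4 vomeronasal members fell into 1 interval of 3110 kb, which starts within Fpr3 and ends at chr17:21025001-21030000, in Zfp160, a zinc finger gene. The closing boundary scored 0.585, above 53.2% of all boundaries but above only 12.3% of the Strong ones. Strong-to-Strong intervals had a median of 385 kb, and 98.0% of the 4025 were shorter than this one, with 80 longer. Distances to the nearest Strong boundary were 104 kb for Fpr-rs4, 403 kb for Fpr-rs3, 844 kb for Fpr-rs6 and 913 kb for Fpr-rs7. The separation of Fpr1 and Fpr2 from the 4 vomeronasal members did not depend on the Weak boundaries, whereas the division of the vomeronasal members into 3 intervals did. Fpr-rs7, Fpr-rs6 and Fpr-rs3 start 2197, 2266 and 2707 kb right of the Strong boundary within Fpr3, far more than the median Strong interval of 385 kb. Their separation therefore says little beyond their distance. Only Fpr-rs4 lies near that boundary, so the separation rests on 1 boundary and 1 vomeronasal gene.

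The stretch of 3110 kb held 21 Vmn2r genes, 10 Vmn1r genes and 19 Vmn pseudogenes beside the Fpr genes, and 2 other coding genes. Its 7 Weak boundaries scored 0.203 to 0.356 with a median of 0.217. The highest, 0.356, lay in Vmn2r101 between Fpr-rs4 and Fpr-rs7, which are 2092 kb and 6 boundaries apart with 15 coding TSSs between them. Between the outermost members, Fpr1 and Fpr-rs3, lay 2741 kb with 8 boundaries, 1 of them Strong. The 8 boundaries make 2.92 per Mb, against 2.96 per Mb over the genome. Boundaries were thus about as dense between the members as over the genome, while 1 of 8 was Strong there, against 53.4% of all.

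The genes that shared an interval with a member differed between the intervals. The immune interval held 3 other coding genes: Has1, a hyaluronan synthase, Spaca6, needed for sperm to fuse with the egg, and Vmn2r90. It also held 4 microRNA genes, among them Mir99b, Mirlet7e and Mir125a. The interval of Fpr-rs4 held 5 other coding genes, all of them Vmn2r receptors: Vmn2r124, Vmn2r91, Vmn2r92, Vmn2r94 and Vmn2r93. That of Fpr-rs7 and Fpr-rs6 held Vmn2r105, Vmn2r104 and Vmn2r106.

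The interval of Fpr-rs3 was the only one of the 4 that held Vmn1r genes. It held 10 of them, with 4 Vmn2r genes, Ppp2r1a, which encodes a scaffold subunit of protein phosphatase PP2A, and Zfp160. As background, Fpr-rs3 has been described in vomeronasal neurons with Gαi2, the subunit of Vmn1r neurons, and the other vomeronasal members in neurons with Gαo, the subunit of Vmn2r neurons. The Vmn1r genes nearest to Fpr-rs3 by position include Vmn1r226 and Vmn1r227. With 1 gene in 1 interval, no relation between the G protein and the neighbours could be tested.

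The sequence of the intervals was compared with all 7556. The immune interval had a GC content of 41.0%, near the interval median of 42.5%, whereas the vomeronasal ones had 37.8% for Fpr-rs4, 36.5% for Fpr-rs7 and Fpr-rs6 and 37.9% for Fpr-rs3. The interval of Fpr-rs7 and Fpr-rs6 stood lowest, and 2.25% of all intervals had a lower GC content still. Repeats, the soft-masked bases of the reference, made up 41.8% of the immune interval, and 53.4%, 45.6% and 47.0% of the intervals of Fpr-rs4, of Fpr-rs7 with Fpr-rs6, and of Fpr-rs3, against a median of 30.7%. All 4 intervals were thus rich in repeats, that of Fpr-rs4 more so than 96.6% of all intervals.

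The density of GATC, the site that DpnII cuts, sets how finely a region is sampled. It was 2.82 per kb in the immune interval, 2.97 in that of Fpr-rs4, 2.80 in that of Fpr-rs7 and Fpr-rs6 and 2.66 in that of Fpr-rs3. All were above the interval median of 2.46 per kb.

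Whether reads could be placed in these intervals was estimated from 100-base reads cut out of the reference and realigned. In the immune interval 93.4% of 2500 reads aligned uniquely (95% Wilson interval 92.4 to 94.3%, counting error only), against a median of 94.4% over intervals. The values were 87.4% for the interval of Fpr-rs4, 92.8% for that of Fpr-rs7 and Fpr-rs6, and 89.3% for that of Fpr-rs3. The stretch without a Strong boundary had 89.9% and the genome 90.5%. Within 50 kb of the TSS the value was 98.0% for Fpr1, 96.4% for Fpr2 and for Fpr3, 93.9% for Fpr-rs4, 89.4% for Fpr-rs7, 93.4% for Fpr-rs6 and 86.3% for Fpr-rs3. Within 50 kb of the boundaries around the immune members it was 89.8% for that of 1.34 and 95.4% for that of 1.29. At the Weak boundaries of the vomeronasal intervals it was 85.9% (score 0.224), 92.4% (0.203) and 91.6% (0.214). At the Strong boundary of 0.585, right of Fpr-rs3, it was 85.1%. The part of uniqueness, repeats and GC content in the scores was not tested. The length and filters of the sequenced reads were not known.

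CTCF is the DNA-binding protein found at many domain boundaries, where it stops the loop-extruding cohesin complex. Exact matches to its 12-base core consensus were searched on both strands. They are matches of letters, and binding was not measured. A match lay within 10 kb of 2 of the 6 boundaries that bound the members' intervals, against 58.0% of all boundaries. Within 5 kb there was none, against 40.3% of all. With a relaxed form of the consensus, 3 of the 6 had a match within 10 kb, against 71.0%. Both matches lie on the plus strand and are shown with 24 bases on each side (GRCm38), capitals marking the core match. A negative distance is to the left.
8.92 kb from the midpoint of the boundary within Fpr3, chr17:17926388-17926447, plus strand: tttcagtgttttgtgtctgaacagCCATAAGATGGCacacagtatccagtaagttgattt
-5.25 kb from the midpoint of the boundary right of Fpr-rs4, chr17:18392224-18392283, plus strand: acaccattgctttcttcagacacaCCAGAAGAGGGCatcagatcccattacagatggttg

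The core matches were unevenly spread along the family. The immune interval held 10, or 4.00 per 100 kb, close to the interval median of 3.2. The interval of Fpr-rs4 held 2, or 0.417 per 100 kb, and 2.87% of all intervals held fewer per length. That of Fpr-rs7 and Fpr-rs6 held 3, or 0.923 per 100 kb, and that of Fpr-rs3 held 7, or 1.02 per 100 kb. The whole stretch without a Strong boundary held 15, or 0.482 per 100 kb, against 3.46 per 100 kb over the genome.

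The nearest core match lay 8.39 kb from the start of Fpr3, 8.41 kb from that of Fpr2 and 12.3 kb from that of Fpr1. It lay 14.4 kb from Fpr-rs7, 46.6 kb from Fpr-rs6, 61.6 kb from Fpr-rs3 and 95.3 kb from Fpr-rs4. The median over all protein-coding genes was 6.86 kb. The value of Fpr3 is that of its GENCODE start, 0.028 kb from the start of Fpr2. Its RefSeq start was not measured in this way. A nearer match was found for 56.3% of genes in the case of Fpr3, 56.4% for Fpr2, 68.0% for Fpr1, 72.1% for Fpr-rs7, 93.1% for Fpr-rs6, 95.5% for Fpr-rs3 and 98.2% for Fpr-rs4. All 7 members thus lay farther from a core match than most genes, and Fpr1 and Fpr-rs7 differed little.

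**Figure D4:**
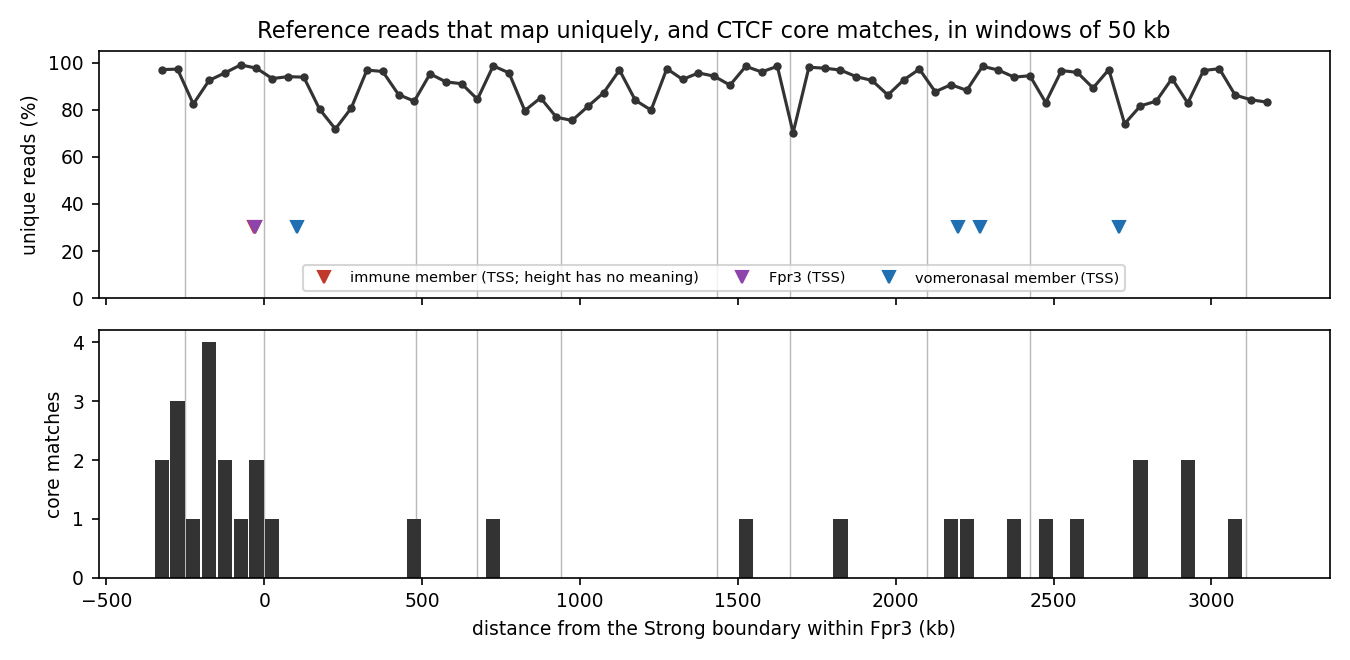
In windows of 50 kb along the cluster, the upper panel gives the share of 100-base reference reads that aligned uniquely (%), and the lower panel the number of CTCF core matches, both against the distance in kb from the Strong boundary within Fpr3 (grey lines, boundaries). Windows left of it and the window just right of it hold matches, and most windows in the stretch with the vomeronasal members hold 0.

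By their reading frames the vomeronasal members formed a set, and the immune members did not. Among the 4 vomeronasal members the coding sequences were 78.9 to 96.5% identical over 6 pairs, with a median of 81.3%. Between an immune and a vomeronasal member the identity was 59 to 72.6% over 8 pairs, with a median of 65.8%. Fpr1 and Fpr2 shared 65.8% with each other, so the 2 immune members were no more alike than an immune and a vomeronasal one at the median. Fpr2 shared 69.1 to 72.6% with the vomeronasal members, more than with Fpr1.

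The closest pair was Fpr-rs7 and Fpr-rs6 at 96.5%, the vomeronasal members that shared an interval. Fpr2 and Fpr3 came next at 88.1%. The coding exon of Fpr2 and that of Fpr3 nevertheless lie on opposite sides of the Strong boundary. Fpr3 shared 69.2 to 72.8% with the vomeronasal members, and 66.4% with Fpr1. The pseudogene Fpr-rs5 was 83.8% identical to its neighbour Fpr-rs4. Of the 100-base reference reads, 9 of 10 within Fpr-rs7 and 8 of 10 within Fpr-rs6 aligned uniquely.

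**Figure D5:**
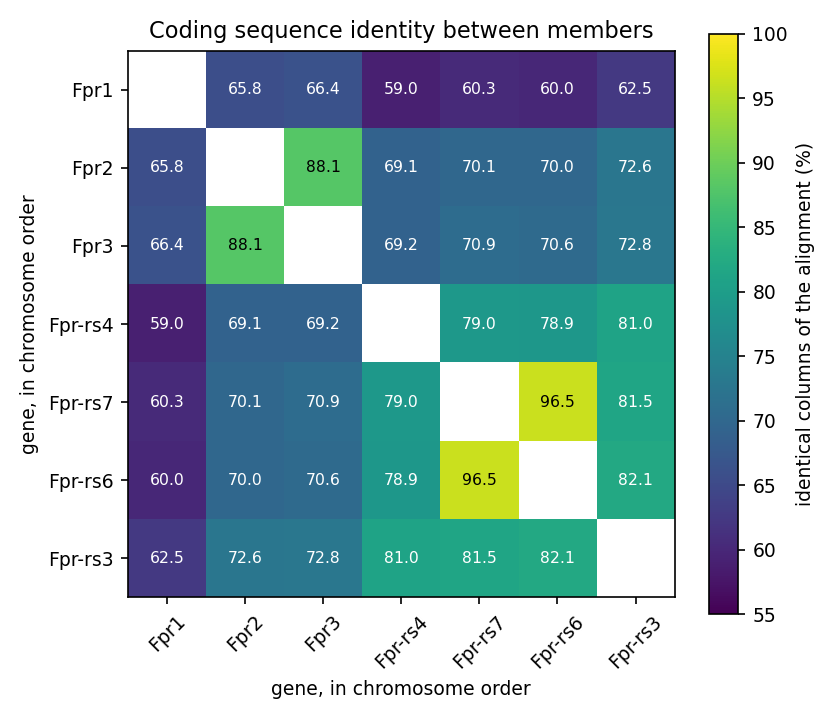
Each cell gives the percent of identical columns in a pairwise alignment of 2 coding sequences, with the members in chromosome order on both axes. The 4 vomeronasal members form a block of 78.9 to 96.5%, Fpr2 and Fpr3 share 88.1%, and Fpr1 shares 59 to 66.4% with the others.

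The sequence ahead of the reading frame was compared over a longer stretch than the windows printed above. Over the 250 bases before the start codon, the vomeronasal members were 65.1 to 88.9% identical with a median of 67.8%, and the highest value was again that of Fpr-rs7 and Fpr-rs6. Fpr2 and Fpr3 shared 71.7% there, whereas Fpr1 shared 45% with Fpr2 and 42.8% with Fpr3. Immune and vomeronasal members shared 45 to 56.8% with a median of 48.9%, in 8 pairs. The members were also set against the neighbours Has1 and Spaca6. For these neighbours the 250 bases before the RefSeq start were taken, not those before the start codon, so the stretches differ in kind. The 14 pairs gave 34.7 to 42.9%, a range that includes the value of Fpr1 with Fpr3. The vomeronasal members were thus more alike ahead of the reading frame than the immune members Fpr1 and Fpr2. The 45% of Fpr1 with Fpr2 still lay above the range of the pairs with Has1 and Spaca6.

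Ligands and signalling genes of the receptors lay elsewhere in the genome, and a list of 38 of them was set beside the members. A boundary lay within 25 kb of 0 of the 7 members, of 10 of the 38 listed genes and of 23.9% of all protein-coding genes. The list's median distance was 53.2 kb. Among 9 ligands and agonists, such as Annexin A1 and serum amyloid A, 1 had a boundary within 25 kb, and their median was 103 kb. Among 19 genes of leukocyte signalling, such as the NADPH oxidase subunits and the G protein subunits, it was 6, with a median of 50.1 kb. Among 12 genes of vomeronasal signalling it was 3, with a median of 67.5 kb, and 2 of these 12 also stand in the leukocyte list.

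Gnao1, which encodes Gαo, was the only listed gene with a boundary within 10 kb, against 11.5% of all protein-coding genes. Its boundary lay at 2.47 kb and scored 0.417. The farthest were Hebp1, which encodes a heme-binding protein from which a chemotactic peptide is cut, at 186 kb, and Trpc2, which encodes the transduction channel of vomeronasal neurons, at 174 kb. The share of the whole list within 25 kb, 26.3%, lay near that of all genes.

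The 3 genes whose position was most like that of the immune members were found by the interval length, the distance to each side and the scores of both boundaries. For Fpr1, Fpr2 and Fpr3 the mean distances were 219 kb to the left and 31.0 kb to the right. Upk1b on chromosome 16 lay 283 and 32.2 kb from boundaries of 1.34 and 1.23. Nfat5 on chromosome 8 lay 196 and 39.0 kb from boundaries of 1.38 and 1.22, and Svbp on chromosome 4 lay 213 and 42.2 kb from boundaries of 1.21 and 1.25. The likeness sums were 0.287, 0.289 and 0.331, where 0 would be the same position and scores.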

How the data were processed

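The 7 members, the immune and vomeronasal sets and the gene lists were chosen with earlier results of these data known. The authors deposited 1 boundary list made from the combined contacts of both replicates on GRCm38, per the series' design text and the submitters' processing notes. Its only measurement is a boundary score for each 5 kb bin, deposited without a unit, which was compared only within the list. Depth is unknown, and so are the aligner, the read filters, the boundary caller and its window (not given in the sources used here). Contact, insulation and compartment data were not used here.

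Distances were taken from the GENCODE M21 5′ end of each gene to the midpoints of the flanking bins, in 1-based coordinates. An interval is the stretch between neighbouring midpoints. RefSeq starts (GRCm38 table, all 7 members matched) and start codons were alternatives chosen after seeing the data. Uniqueness used reads of 100 bases aligned with minimap2 2.31, counting a mapping quality of at least 30, every 100 bases along the cluster and every 2000 bases over the genome. Identity is the share of identical columns in a global alignment (Biopython 1.88). Scripts ran on Python 3.11.15 and were tested on simulated positions. No p-value was computed: there is 1 map, no replicate values and no second group.

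Genes were named by rule: the members and other Fpr genes, coding genes in their intervals (at most 15, nearest first), the nearest coding gene to each flanking boundary, the 3 genes of most similar position, and signalling genes within 10 kb of a boundary with the 2 farthest. Vmn2r101 and the microRNA genes were named after their values were seen. The reference is of C57BL/6J, so rearrangements particular to 129P2/OlaHsd are not seen.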

Additional observations from a re-analysis of the deposited data

How the results depend on the processing

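Over 54 alternative settings of the main values, 30 stayed within their limit of change and 24 moved; for single genes 39 of 49 stayed and 10 moved. With Strong boundaries alone, and equally with boundaries at or above the median score, the median member distance was 104 kb, the members lay in 2 intervals, the interval with most members was 3110 kb, 1 boundary lay between the outermost members and the median flanking score was 1.29, against 96.7 kb, 4 intervals, 250 kb, 8 boundaries and 0.405 with the whole list. The members with a boundary within 25 kb numbered 1 from gene midpoints (Fpr3, at 12.3 kb) and 1 from start codons (Fpr2, at 24.8 kb), and 3 at 50 kb, against 0. With the pseudogene included the median distance was 84.9 kb. Counting Fpr3 as vomeronasal gave 1 interval shared by immune and vomeronasal members, and so did its RefSeq start with Fpr3 counted as immune, against 0. With RefSeq starts 3 intervals tie at 2 members each, and the longest of them is 480 kb. Uniqueness in the immune interval was 16.1% with reads of 50 bases, 96.1% with 150 bases and 95% at a mapping quality of at least 10, against 93.4%. Over the whole cluster, 50-base reads gave 16.9% at a quality of at least 30 and 75.4% at a quality of at least 10, so the low value at 50 bases depends on the quality limit. Flanking boundaries with a CTCF core match numbered 0 within 5 kb, against 2 within 10 kb. Of the 38 ligand and signalling genes, 1 had a boundary within 10 kb, 16 within 50 kb and 6 a Strong one within 25 kb, against 10. The shares of all protein-coding genes were 11.5%, 43.2% and 15.8%, against 23.9%.

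No paired analysis was possible because both replicates were combined before boundaries were called, so leaving out a replicate was not run either. Depth, and with it the error of a single Weak boundary, is unknown.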

Other observations

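Other families of chemosensory receptors that do not belong to the olfactory receptors can be set beside the 7 Fpr genes. The median distance to the nearest boundary was 96.7 kb for the members, 143 kb for 120 Vmn2r genes, which encode vomeronasal receptors of the Gαo neurons, 108 kb for 15 Taar genes, which encode receptors for volatile amines, and 88.6 kb for 19 Ms4a genes, which encode the receptors of necklace olfactory neurons and related proteins of immune cells. A boundary lay within 25 kb of 0 of 7 members, of 10 Vmn2r genes (8.33%), of 2 Taar genes (13.3%) and of 4 Ms4a genes (21.1%), against 23.9% of all protein-coding genes. The members lay in 4 intervals, the Vmn2r genes in 37, the Ms4a genes in 3 and all 15 Taar genes in 1.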
